A study of Mus musculus with 64 samples.

Results

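The genes described here are 9 mouse genes of the germline that encode proteins with Tudor domains, namely Tdrd1, Tdrd9, Tdrkh, Tdrd5, Tdrd6, Tdrd7, Rnf17, Stk31 and Tdrd3. They were chosen by name, as the rows of the gene tables that carry these symbols, and make up 9 of the 26385 genes listed. A Tudor domain is a fold that binds methylated arginine or lysine on other proteins. In male germ cells, PIWI proteins carry methylated arginines, and Tudor proteins dock on them to build the perinuclear granules (intermitochondrial cement, and the chromatoid body of later cells) in which piRNAs, the small RNAs that guide PIWI proteins to transposon transcripts, are made and used. Tdrd3 is the exception in the group, since it is expressed in most tissues and its protein reads methylarginine on histones and RNA polymerase.

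The values came from 47 RNA-Seq libraries, each from 1 mouse, of a study that asked how loss of MORC1, a nuclear ATPase, changes transposons and genes in the male germline. Of these, 20 were of sorted germ cells and 27 of whole testis. The sorted cells were of Morc1 tg/+ and Morc1 tg/tg males (het and KO in the labels), with 2 libraries per genotype from embryonic day E16.5, 2 per genotype from E18.5, 3 tg/+ and 2 tg/tg from postnatal day P2.5, and 4 tg/+ and 3 tg/tg from P10.5. The tg allele is an insertion of a tyrosinase transgene in FVB/N mice that removes part of the ATPase domain, so that the remaining exons can still give reads. Up to P2.5 the mice also carried the Oct4-IRES-eGfp reporter, and GFP-positive cells were sorted. At P10.5 the sort took cells of low side scatter, high EPCAM and no MHC class I. From E16.5 to P2.5 the reporter came with a mixed strain background, per the study's methods, so stage, sort, reporter and background cannot be told apart between P10.5 and the earlier stages. Whole testis of the Morc1 line comprised 1 +/+, 2 tg/+ and 3 tg/tg libraries at P10.5, 1 +/+ and 1 tg/+ library labelled preliminary at the same age, and 3 tg/+ and 3 tg/tg libraries at P14.5. Testes of other lines were taken at P10.5, with 3 Dnmt3l +/+, 3 Dnmt3l +/- and 3 Dnmt3l-/- libraries (DNMT3L is the cofactor of de novo DNA methylation) and 2 Miwi2 +/- and 2 Miwi2-/- libraries (MIWI2, encoded by Piwil4, is the nuclear PIWI protein of fetal germ cells). Sorted cells were sequenced from rRNA-depleted total RNA with an Ovation kit and whole testis with the TruSeq kit, so tissue and kit cannot be told apart.

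Sorted cell libraries held 2413679 to 14918478 reads assigned to genes, and testis libraries 22509570 to 42137954. Among sorted cells depth was lowest at E18.5 (2698197 to 4007833) and in the first tg/+ and first tg/tg libraries of P2.5. Every gene of the group had reads in all 47 libraries, but Tdrd6 had between 5 and 314 reads per library. The lowest library had 48 reads of Tdrd3, 63 of Tdrkh and 124 of Tdrd7, and at least 212 of each other gene. The germ cell markers Ddx4 and Dazl were abundant in every sorted library. Of the other germ cell markers, Dppa3 was at 0 in 2 sorted libraries of P2.5 and 2 of P10.5. At P10.5 medians in sorted cells were below those in testis for Tex101 (24.8 against 51.5 RPKM), Sohlh1 (15.9 against 39.6) and Tuba3b (69.9 against 107). Those of Mael (86.2 against 54.9) and Taf7l (152 against 83.7) were higher. The summed level of 8 Sertoli cell markers lay between 13.1 and 51.5 RPKM in sorted libraries against 736 to 1879 RPKM in testis. The summed level of 6 Leydig cell markers lay between 0.871 and 17.0 RPKM in sorted cells against 109 to 396 RPKM in testis; Insl3 was at 0 in all but 1 of the sorted libraries, while Star had reads in all 20 and Cyp17a1 reached 7.97 and Cyp11a1 4.36 RPKM at E18.5. Endothelial markers were not lower in all sorted cells, as 4 of them summed to 2.66 to 36.9 RPKM against 18.8 to 47.5 in testis. At E18.5 Pecam1 (16.8 to 23.2 RPKM) and Tek (2.74 to 4.24) lay above P10.5 testis (3.29 to 6.89 and 1.32 to 2.17). Cdh5 (6.23 to 12.3 against 12.5 to 31.4 RPKM) and Kdr (0 to 1.58 against 3.73 to 8.58) lay below it. Macrophage and blood markers summed to 2.32 to 40.2 RPKM in sorted cells against 29.1 to 178 in testis. At E18.5 the globin gene Hbb-b1 had a median of 22.7 RPKM, while the medians of the globin gene Hba-a1, Csf1r and Ptprc were 0. Cd68 had a median of 2.78 and Emr1 of 0.424 RPKM there. The part of these cells in the results was not tested. The targeted Morc1 transcript was lower in tg/tg than in tg/+ libraries at every stage (E16.5 mean 9.72 against 44.5 RPKM), and Dnmt3l lay between 0.037 and 0.0464 RPKM in Dnmt3l-/- testes against 0.374 to 1.02 in their controls. In the libraries labelled Miwi2-/-, Piwil4 was higher than in +/- (mean 11.1 against 6.83 RPKM, log2 fold change 0.69, edgeR adjusted p = 0.000746). Reads outside the deleted part do not check the label, and these libraries are therefore called by their label throughout.

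Levels are given as RPKM, reads per kilobase of exon scaled to the mapped reads of the library, the scale on which different genes can be compared. Differences are log2 fold changes of the counts with their standard error (SE), and a gene was called where the adjusted p of edgeR's quasi-likelihood test over all genes tested was under 0.05.

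In mm9, the build of the gene tables, Tdrd1 spans chr19:56900699-56944502, Tdrd9 chr12:113209770-113307065, Tdrkh chr3:94217218-94236555, Stk31 chr6:49345603-49419500, Rnf17 chr14:57021534-57143869, Tdrd3 chr14:87816390-87945315 and Tdrd7 chr4:45978206-46047633, all on the plus strand. Tdrd5 (chr1:158185426-158233795) and Tdrd6 (chr17:43752284-43767248) lie on the minus strand. Values are over all exons of a gene.

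In the RefSeq promoter table of GRCm38.p6, 7 of the 9 genes had an entry (12 windows of 300 bases, from 250 before to 50 after the start), and Tdrd6 and Rnf17 had none. The E-box CACGTG, which reads the same on both strands, is held by 7.15% of all 32851 windows. It was found in the only window of Tdrd9, in both windows of Stk31 and in the first and second of the 3 windows of Tdrd1. That share counts windows and not genes, and windows of a gene can overlap. The 250 bases before the start are shown for the genes that hold it and, for contrast, for Tdrkh, whose window lacks the letters. All 4 were called lower in Morc1 tg/tg testis of P14.5 (20.1% of all genes were) and in Dnmt3l-/- testis (29.0%). So were Tdrd5 and Tdrd7, which also lack the letters. In Morc1 tg/tg testis of P10.5 only Tdrd9 and Tdrkh of the 4 were called, both lower (9.26% of all genes). A link between the letters and the calls was not tested. CACGTG is in capitals. The positions are chr12:111971309-111971558 for Tdrd9, chr19:56825959-56826208 for Tdrd1, chr6:49395289-49395538 for Stk31 and chr3:94412994-94413243 for Tdrkh, and all are on the plus strand.
Tdrd9: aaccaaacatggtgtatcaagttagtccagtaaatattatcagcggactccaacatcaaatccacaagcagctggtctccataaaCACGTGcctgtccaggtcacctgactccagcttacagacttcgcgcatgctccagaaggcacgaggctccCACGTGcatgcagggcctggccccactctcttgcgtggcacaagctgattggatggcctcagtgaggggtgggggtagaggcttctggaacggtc
Tdrd1: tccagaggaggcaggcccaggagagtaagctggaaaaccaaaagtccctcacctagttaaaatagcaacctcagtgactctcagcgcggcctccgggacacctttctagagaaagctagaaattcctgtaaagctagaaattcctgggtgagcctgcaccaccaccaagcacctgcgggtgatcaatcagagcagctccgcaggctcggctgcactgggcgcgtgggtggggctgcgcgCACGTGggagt
Stk31: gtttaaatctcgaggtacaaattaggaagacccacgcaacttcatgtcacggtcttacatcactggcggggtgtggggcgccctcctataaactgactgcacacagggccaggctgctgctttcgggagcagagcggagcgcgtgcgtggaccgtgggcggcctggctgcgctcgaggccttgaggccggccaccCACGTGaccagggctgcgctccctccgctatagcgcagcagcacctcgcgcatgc
Tdrkh: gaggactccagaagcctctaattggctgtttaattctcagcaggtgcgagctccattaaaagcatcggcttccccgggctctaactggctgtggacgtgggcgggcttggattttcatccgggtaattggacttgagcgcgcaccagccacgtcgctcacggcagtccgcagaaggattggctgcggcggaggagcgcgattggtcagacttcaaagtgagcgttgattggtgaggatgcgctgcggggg
Tdrd9 holds the letters at 2 places, starting 165 and 95 bases before the start, Stk31 at 55 bases and Tdrd1 at 11 bases before it. Searched on both strands, the NRF1 motif was in windows of Tdrd1, Tdrd5, Tdrd7 and Stk31 and in 4.6% of all windows, while GGCGGGAA (2.19%) and TGACGTCA (1.79%) were in none of those of these genes. The 12 windows held from 3 CpGs (the third window of Tdrd1) to 48 (Tdrd5), beside a median of 7 over all windows, and the 300-base windows from which the stretches shown were taken held 10 (Tdrd9), 20 (Tdrd1), 25 (Tdrkh) and 29 (Stk31). The first window of Tdrd7, with 4, also lay below that median. A match is a string of letters and not a bound site.

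In germ cells of Morc1 tg/+ males, the group was at its highest at E16.5 and its genes differed widely in level. At E16.5 the order of mean RPKM was Tdrd9 (123), Stk31 (88.6), Tdrd1 (53.9), Rnf17 (40.9), Tdrd5 (32.9), Tdrd7 (24.9), Tdrkh (13.5), Tdrd3 (7.05) and Tdrd6 (0.479), and no neighbours in that order overlapped over the 2 libraries. Of the 9 genes, 7 had their highest tg/+ mean at E16.5, the others being Tdrd3 and Tdrd6. By P10.5 the order had flattened, with Tdrd1 at 21.4 and Stk31 at 21.0 RPKM, Rnf17 at 18.2, Tdrd5 at 15.1 and Tdrd9 at 14.9, and each of these overlapped its neighbour over the 4 libraries. Tdrd9 had thus gone from the highest of the group to the fifth place. Between P10.5 and E16.5, 8 of the 9 genes were called lower, while 28.8% of all genes tested were called lower and 50.7% in either direction.

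**Figure D1:**
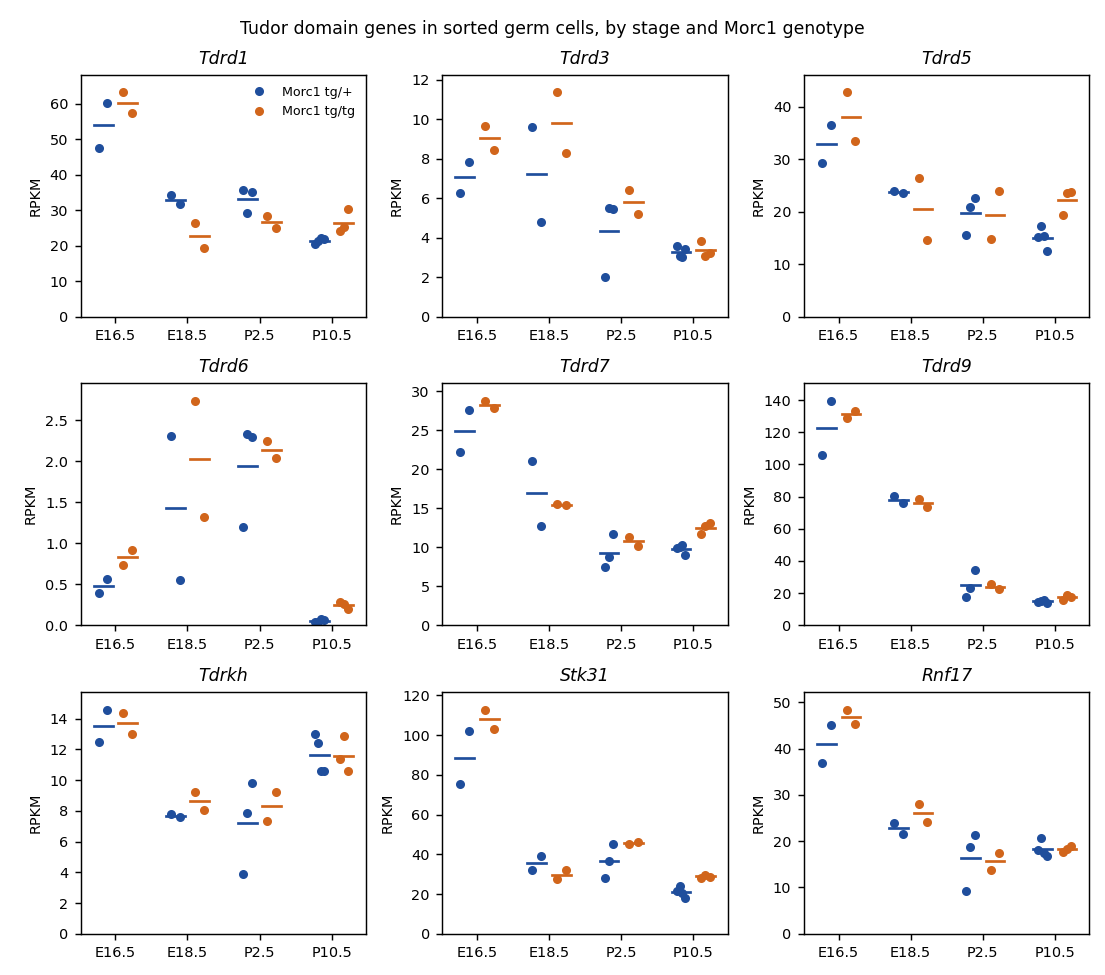
RPKM of each gene (y axis, from 0) by stage of the sorted germ cells (x axis, E16.5 to P10.5). Each point is 1 library (blue, Morc1 tg/+; orange, Morc1 tg/tg) and each bar a group mean; Tdrd9 goes from 123 RPKM at E16.5 to 14.9 at P10.5 in tg/+ cells, while Tdrkh is higher at P10.5 than at P2.5 and Tdrd6 has its highest tg/+ mean at P2.5.

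Tdrd9 encodes a helicase with a Tudor domain that works with MIWI2 in fetal prospermatogonia. Its levels were 106 and 139.5 RPKM in E16.5 cells, 80.5 and 75.8 at E18.5, 17.4, 23.1 and 34.3 at P2.5, and 14.3, 15.4, 15.9 and 13.9 at P10.5. No library of a later stage reached the lowest of an earlier one. The difference was called at each step, with a log2 fold change of -0.62 (SE 0.187, adjusted p = 0.0293) from E16.5 to E18.5, -1.84 (SE 0.171, adjusted p = 1.02e-06) from E18.5 to P2.5 and -0.46 (SE 0.146, adjusted p = 0.0292) from P2.5 to P10.5. The first step lost its call without the second E16.5 library (-0.53, adjusted p = 0.178) or the first E18.5 library (adjusted p = 0.0824), and the last step among others without the third P2.5 library (-0.22, adjusted p = 0.243).

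Tdrd1 encodes a scaffold of several Tudor domains that binds MILI in intermitochondrial cement. It was at 47.7 and 60.1 RPKM in E16.5 cells, 34.2 and 31.8 at E18.5, 35.6, 29.1 and 35.1 at P2.5, and 20.4, 21.3, 22.1 and 21.8 at P10.5. The E18.5 and P2.5 libraries overlapped, and all of P10.5 lay below all earlier ones. It fell from E16.5 to E18.5 (log2 fold change -0.68, SE 0.129, adjusted p = 0.00143; -1.29, adjusted p = 0.000148, in tg/tg libraries) and from P2.5 to P10.5 (-0.35, SE 0.0985, adjusted p = 0.0145). The second step lost its call without the first P10.5 library (-0.31, adjusted p = 0.0567) and had the opposite sign in tg/tg libraries (0.26, adjusted p = 0.25).

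Stk31, a Tudor protein with a kinase domain, and Rnf17, which joins a RING finger to Tudor domains, had their largest step between E16.5 and E18.5. Stk31 went from 75.3 and 101.9 RPKM to 32.1 and 39.1 (log2 fold change -1.27, SE 0.198, adjusted p = 0.000307), then 28.0, 36.5 and 45.3 at P2.5 and 21.4, 24.2, 20.4 and 18.0 at P10.5. Rnf17 went from 36.8 and 45.1 to 24.0 and 21.5 (-0.82, SE 0.235, adjusted p = 0.0218), 9.22, 18.7 and 21.3, and 18.2, 20.6, 17.4 and 16.8. At neither gene did the E16.5 libraries overlap any later stage. The Rnf17 step lost its call without any 1 of the 4 libraries compared (adjusted p from 0.052 to 0.096), while the Stk31 step was called under every alternative.

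Tdrkh, Tdrd6 and Tdrd3 had other courses. The Tdrkh protein tethers piRNA intermediates to mitochondria for trimming of their 3′ ends. The Tdrkh transcript was at 12.5 and 14.6 RPKM in E16.5 cells, 7.77 and 7.58 at E18.5, 3.87, 7.89 and 9.81 at P2.5, and 13.0, 12.4, 10.6 and 10.6 at P10.5, so that all P10.5 libraries lay above all P2.5 libraries, and 1 of the 4 lay in the E16.5 range with the others below it. It rose from P2.5 to P10.5 (log2 fold change 0.96, SE 0.212, adjusted p = 0.003), where 13.4% of all genes were called higher, and by 0.70 (adjusted p = 0.00306) without the shallow first P2.5 library. P10.5 did not differ detectably from E16.5 (-0.10, adjusted p = 0.751).

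Tdrd5 and Tdrd7 encode granule proteins that carry LOTUS as well as Tudor domains. Tdrd5 was at 29.3 and 36.5 RPKM in E16.5 cells, about 24 in both E18.5 libraries (24.0 and 23.6), 15.5, 21.0 and 22.6 at P2.5, and 15.2, 17.3, 15.3 and 12.5 at P10.5. Tdrd7 was at 22.2 and 27.6, 21.1 and 12.8, 7.45, 8.73 and 11.8, and 9.86, 10.1, 10.3 and 9.03. The step called for both was from E18.5 to P2.5, with log2 fold changes of -0.46 (SE 0.163, adjusted p = 0.0357) for Tdrd5 and -1.02 (SE 0.18, adjusted p = 0.000374) for Tdrd7. The Tdrd5 call was lost without the first P2.5 library (-0.28, adjusted p = 0.152), without the second E18.5 library (-0.35, adjusted p = 0.177), without the first or the third P10.5 library of the same fit (adjusted p = 0.0503 and 0.0509) and in tg/tg libraries (-0.31, adjusted p = 0.347). The fall of Tdrd3 at the same step (-0.87, SE 0.313, adjusted p = 0.038) rested on single libraries, as it had 9.62 and 4.82 RPKM at E18.5 against 2.03, 5.49 and 5.47 at P2.5, the ranges overlapped, and without the first E18.5 library it was -0.42 (adjusted p = 0.346). Its call was lost under 7 of 16 alternatives in all.

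Tdrd6 is a chromatoid body protein of spermatids, and its transcript was scarce here. In tg/+ cells it had 53 and 90 reads at E16.5 (0.389 and 0.569 RPKM), 108 and 30 at E18.5 (2.3 and 0.551 RPKM), 38, 168 and 174 at P2.5 (1.2, 2.34 and 2.29 RPKM), and 5, 5, 9 and 7 reads at P10.5 (0.0426, 0.039, 0.0786 and 0.0657 RPKM). All P10.5 libraries lay below all earlier ones. It fell between P2.5 and P10.5 (log2 fold change -4.80, SE 0.533, adjusted p = 1.01e-05), and by 2.86 in tg/tg libraries (adjusted p = 0.000944).

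In all, 4 of 9 genes were called from E16.5 to E18.5 (18.7% of all genes), each of them lower. Called lower were 5 of 9 from E18.5 to P2.5 (21.0%, with 39.1% in either direction) and 4 of 9 from P2.5 to P10.5 (14.2%, with 27.6% in either direction), and the 1 called higher was Tdrkh at the last step. The steps share the libraries of the stage between them. Beside the losses given above, calls were lost for Rnf17 from E18.5 to P2.5 (without the second E18.5 library, adjusted p = 0.0856), for Stk31 from P2.5 to P10.5 (under 4 alternatives, adjusted p up to 0.11) and for Tdrd3 between E16.5 and P10.5 (without the second E16.5 library, 0.0653). Calls were gained under 1 or more alternatives for Tdrd5, Tdrd7 and Tdrkh (lower) and Tdrd6 (higher) from E16.5 to E18.5, with adjusted p down to 0.0322, 0.00745, 0.00376 and 0.00946, and for Tdrd7 and Rnf17 (higher) from P2.5 to P10.5, down to 0.0405 and 0.0308. Cell type markers moved over the same stages. From E16.5 to E18.5, 6 of 9 markers of undifferentiated spermatogonia were called higher (median 0.85) and 0 lower. From E18.5 to P2.5, 6 of these 9 were again called higher (median 2.47), and 3 of 6 of peritubular and stromal cells (median -1.37), 2 of 5 of Leydig cells (median -2.16) and 2 of 4 of endothelial cells (median -1.01) lower. At this step 4 of 9 pachytene markers were lower and 0 higher (median -1.47), and 3 of 6 of differentiating spermatogonia were higher (median 1.18). From P2.5 to P10.5, 6 of 9 markers of undifferentiated spermatogonia were lower (median -1.05), 4 of 8 of germ cells in general lower and 1 higher (median -0.46), 5 of 9 of early meiosis higher and 2 lower (median 0.73), and 3 of 8 of Sertoli cells higher (median 1.02). Between P10.5 and E16.5, 4 of 8 Sertoli cell markers were higher (median 1.89), and 3 of 5 Leydig cell markers (median -4.16) and 3 of 4 endothelial cell markers (median -2.38) lower. Of 9 pachytene markers 6 were lower and 2 higher (median -1.71), and of 8 of germ cells in general 5 were lower and 2 higher (median -0.42). Higher were 5 of 6 of differentiating spermatogonia (median 2.78), 6 of 9 of undifferentiated ones (1 lower, median 2.46) and 6 of 9 of early meiosis (2 lower, median 1.14). The part of these shifts in the stage course of the Tudor genes was not tested. Of the 13 piRNA pathway genes measured that are not Tudor genes of this group (PIWI proteins, Ddx4, Mael, Mov10l1 and others), 10 fell and 0 rose from E16.5 to E18.5, with a median log2 fold change of -1.09 beside -0.62 for the Tudor genes and -0.07 for all genes. Among them, Piwil4 had a log2 fold change of -1.83 (SE 0.226, adjusted p = 3.99e-05) and Tdrd12, a Tudor helicase of piRNA biogenesis, of -2.21 (SE 0.226, adjusted p = 8.91e-06). From E18.5 to P2.5, 5 of the 13 rose and 2 fell, while 0 of the Tudor genes were called higher. From P2.5 to P10.5, 8 of the 13 fell and 0 rose (median -0.43), and 9 fell and 0 rose between E16.5 and P10.5 (median -1.34).

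At P10.5, Stk31 and Tdrd1 had the highest means in control germ cells (21.0 and 21.4 RPKM) and in control testis of the Morc1 line (19.2 and 17.1 RPKM). On the scale of edgeR's normalisation, 6 of the 8 genes tested were higher in germ cells, where 40.4% of all genes were called higher and 83.3% were called in either direction. The largest were Rnf17 (log2 fold change 1.46, SE 0.0887, adjusted p = 6.11e-10) and Tdrd5 (1.37, SE 0.10, adjusted p = 5.29e-09), and Tdrd3 was lower (-0.38, SE 0.0927, adjusted p = 0.00136; 42.9% of all genes were called lower). Tdrd6 was under the filter on low counts. The deposited RPKM put the genes lower in germ cells than this, with ratios of mean RPKM of 1.69 for Rnf17, 1.59 for Tdrd5, 1.25 for Tdrd1, 1.05 for Tdrkh and 0.643 for Tdrd7, so that the sign for Tdrd7 and the size for all genes depend on the scaling. By the same edgeR test, 4 of 7 general germ cell markers were called higher in germ cells and 2 lower (median 0.92). Kit and tissue cannot be told apart here.

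The loss of MORC1 was not accompanied by a called change of any of these genes in germ cells up to P2.5. Of the 9 genes, 0 were called in E16.5 cells (0.421% of all genes were), and the log2 fold changes ran from -0.06 for Tdrkh to 0.72 for Tdrd6. In E18.5 cells (0.0416% of all genes) and P2.5 cells (0.0486%) again 0 of 9 were called, with ranges of -0.43 to 0.64 and -0.34 to 0.40. The 0 of 9 held at each of these stages with DESeq2 and every other setting tried. With 2 libraries in an arm, the absence of a call does not show the absence of a change. For Tdrd1, tg/tg libraries of E18.5 were at 26.4 and 19.2 RPKM, both below tg/+ libraries of 34.2 and 31.8. The difference was not called (-0.43, adjusted p = 0.79). Tdrd9 was at 129 and 134 RPKM at E16.5 in tg/tg cells, within the tg/+ range.

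In germ cells of P10.5, Tdrd5, Stk31 and Tdrd6 were higher in Morc1 tg/tg males. Tdrd5 was at 19.4, 23.7 and 23.8 RPKM in tg/tg against 15.2, 17.3, 15.3 and 12.5 in tg/+ libraries, a log2 fold change of 0.48 (SE 0.10, adjusted p = 0.0019). Stk31 was at 28.3, 29.6 and 28.7 against 21.4, 24.2, 20.4 and 18.0 RPKM (0.38, SE 0.0907, adjusted p = 0.00604). For both genes, all tg/tg libraries lay above all tg/+ libraries. Tdrd6 had 32, 30 and 21 reads (0.287, 0.253 and 0.193 RPKM) against 5, 5, 9 and 7, again with no overlap, a log2 fold change of 2.02 (SE 0.552, adjusted p = 0.0157) that was no longer called without the first (adjusted p = 0.0795) or second (0.0651) tg/tg library. These were 3 of 9 genes called, all higher, beside 6.43% of all genes called higher and 12.2% called in either direction. Tdrd1 (0.23, adjusted p = 0.0836, or 0.0437 without the filter on low counts) and Tdrd7 (0.27, adjusted p = 0.0728) did not pass the test, and Tdrkh, Rnf17, Tdrd3 and Tdrd9 had differences between -0.09 and 0.13.

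Of the 13 other piRNA pathway genes, 3 rose and 0 fell in these cells, namely Gtsf1 (log2 fold change 0.50, SE 0.12, adjusted p = 0.00613), Piwil2 (0.24, SE 0.0792, adjusted p = 0.0446) and Ddx4 (0.23, SE 0.0746, adjusted p = 0.0418). Their median was 0.23, as was that of the Tudor genes, beside 0.00 over all genes. In the same libraries, 5 of 9 markers of undifferentiated spermatogonia were called higher (median 0.41), 6 of 9 of early meiosis lower (median -0.41), and 2 of 8 of Sertoli cells lower (median -0.65). Differentiating spermatogonia had 3 of 6 lower and 1 higher (median -0.25), and pachytene 2 of 8 lower (median -0.46). Peritubular and stromal cells had 2 of 5 higher and 0 lower, though their median was -0.50. The summed early meiosis markers were 225 to 259 RPKM in tg/+ and 192 to 202 in tg/tg libraries. The part of these marker shifts in the results for the Tudor genes was not tested.

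In whole testis of P10.5, in which the first germ cells enter meiosis, other genes of the group differed, and in the opposite direction. Controls are the +/+ library followed by the 2 tg/+ libraries. Tdrkh was at 10.9, 11.1 and 11.3 RPKM in controls and at 7.88, 7.0 and 7.25 in tg/tg (log2 fold change -0.57, SE 0.0602, adjusted p = 0.000205). Rnf17 was at 10.1, 11.8 and 10.6 against 8.27, 6.95 and 6.88 (-0.54, SE 0.0821, adjusted p = 0.00166), and Tdrd9 at 11.9, 12.3 and 11.6 against 9.22, 8.41 and 8.32 (-0.45, SE 0.0573, adjusted p = 0.000608). In each case all tg/tg libraries lay below all controls. These 3 of 9 genes compare with 9.26% of all genes called lower and 15.3% called in either direction. With the preliminary controls added and batch as a term, the 3 differences were -0.58, -0.55 and -0.46.

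The other genes of the group were not called at this age. Stk31 (18.4, 19.9 and 19.3 against 18.0, 16.1 and 15.9 RPKM) and Tdrd1 (16.2, 18.1 and 17.0 against 15.8, 15.3 and 13.4 RPKM) did not overlap between groups but missed the threshold, with -0.19 for both (adjusted p = 0.0531 and 0.0821). Stk31 passed it with the preliminary controls (adjusted p = 0.0345), without the first tg/tg library (0.0246) and without the filter on low counts (0.0486). Tdrd5, Tdrd7, Tdrd3 and Tdrd6 overlapped between genotypes. Among the 13 other piRNA pathway genes, 6 fell and 0 rose. Their median was -0.26, beside -0.19 for the Tudor genes and 0.01 over all genes. In bulk tissue, fewer cells of a type and less RNA per cell cannot be told apart. The summed early meiosis markers were 109 to 115 RPKM in controls and 52.6 to 59.7 in tg/tg testes (9 of 9 markers tested called lower, median -1.01). Of general germ cell markers 7 of 8 were lower (median -0.59), and of differentiating spermatogonia 5 of 6 (median -0.57), with 0 higher. None of 9 markers of undifferentiated spermatogonia was called. Called higher were 3 of 8 Sertoli cell markers, 3 of 6 of macrophages and blood (median 0.42) and 2 of 4 of endothelial cells (median 0.25). The part of these shifts in the results for the Tudor genes was not tested.

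Heterozygous controls gave no called difference. Between Morc1 tg/+ and +/+ testes, here 3 and 2 libraries with the preliminary ones included and batch as a term (0.0131% of all genes called), log2 fold changes of the 9 genes ran from -0.43 for Tdrd6 to 0.12 for Rnf17, and between Dnmt3l +/- and +/+ (0.00651%) from -0.02 to 0.31, with 0 of 9 called in both.

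In testis of P14.5, when germ cells of the first wave have moved further into meiosis, all of the group except Tdrd3 were lower in Morc1 tg/tg mice. These 8 of 9 genes compare with 20.1% of all genes called lower and 34.8% called in either direction, and the median log2 fold change was -0.89 beside 0.01 over all genes. The 8 calls were made at every setting tried, including without any 1 library.

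**Figure D2:**
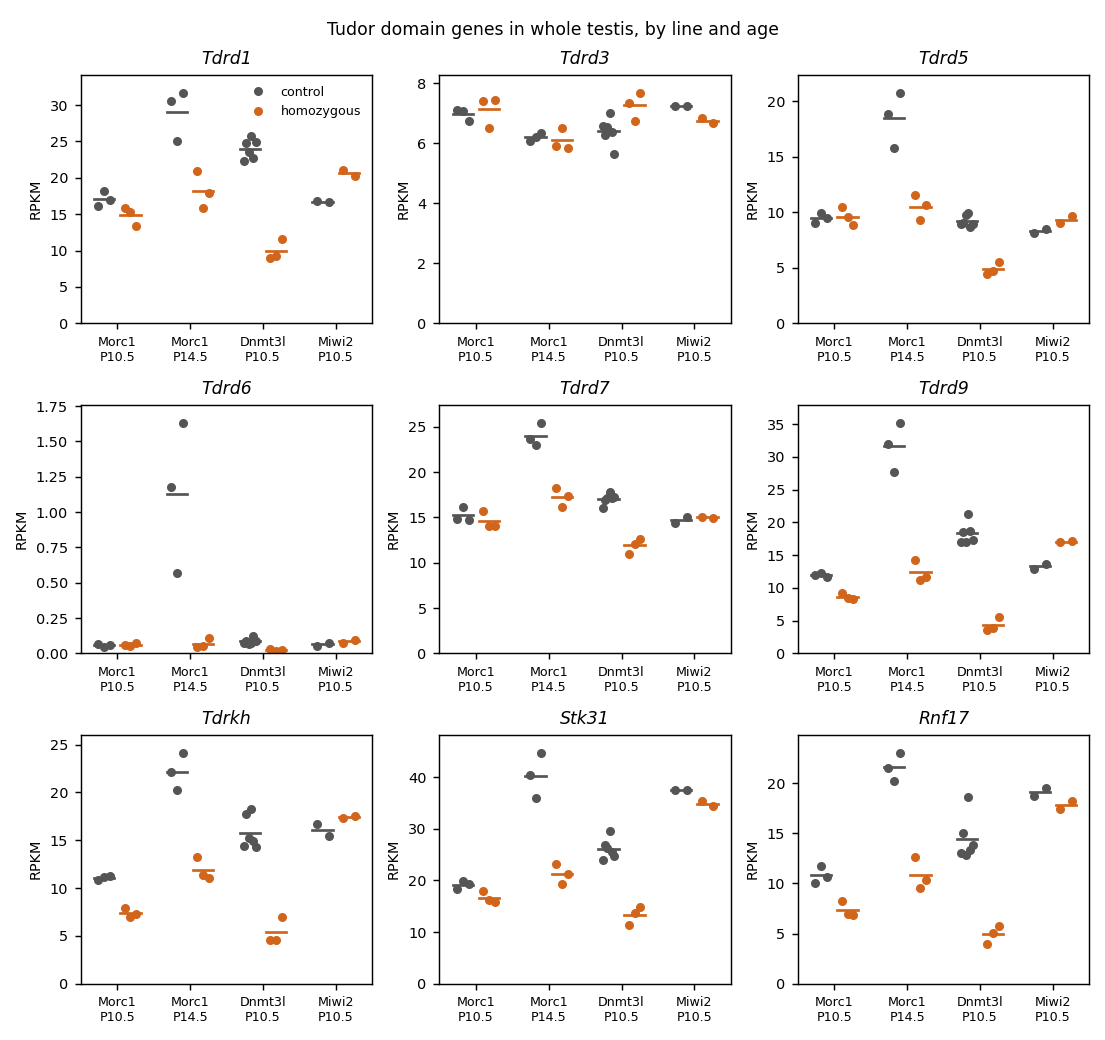
RPKM of each gene (y axis, from 0) in whole testis, by mouse line and age (x axis). Each point is 1 library (grey for controls without the preliminary ones, orange for homozygous mutants, with Miwi2-/- by label) and each bar a group mean. At P14.5 the mutants lie below all controls at every gene except Tdrd3. The share of all genes separated in this way was not counted, and 20.1% of all genes were called lower there.

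Tdrd6 had the largest difference. Its 3 control libraries had 242, 127 and 314 reads (1.18, 0.572 and 1.63 RPKM) and the tg/tg libraries 10, 10 and 20 reads (0.0475, 0.0497 and 0.108 RPKM), a log2 fold change of -4.05 (SE 0.474, adjusted p = 0.000436). The tg/tg testes of P10.5 were at 0.0597, 0.0543 and 0.0751 RPKM, and those of P14.5 lay on both sides of them.

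Tdrd9 was at 32.0, 27.8 and 35.2 RPKM in controls and 14.3, 11.2 and 11.7 in tg/tg, a fall by 1.35 on the log2 scale (SE 0.112, adjusted p = 0.00012). Rnf17 was at 21.6, 20.2 and 23.0 against 12.7, 9.54 and 10.4 (-0.98, SE 0.0991, adjusted p = 0.000232). Stk31 was at 40.3, 35.9 and 44.6 against 23.3, 19.3 and 21.3 (-0.92, SE 0.0961, adjusted p = 0.000271). None of these groups overlapped. Tdrkh (22.1, 20.2 and 24.1 against 13.3, 11.4 and 11.1 RPKM) and Tdrd5 (18.9, 15.8 and 20.8 against 11.5, 9.31 and 10.7 RPKM) had log2 fold changes of -0.89 (SE 0.0911, adjusted p = 0.000245) and -0.81 (SE 0.115, adjusted p = 0.00106). Tdrd1 (30.5, 25.1 and 31.7 against 21.0, 15.8 and 17.8 RPKM) had -0.67 (SE 0.115, adjusted p = 0.00268), and Tdrd7 (23.7, 23.0 and 25.4 against 18.2, 16.1 and 17.4 RPKM) had the smallest called difference, -0.47 (SE 0.0676, adjusted p = 0.00113). Tdrd3 was at 6.07, 6.21 and 6.33 against 5.92, 6.50 and 5.86 RPKM and was not called (-0.02, SE 0.0727, adjusted p = 0.887).

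Of the other piRNA pathway genes, 11 of 13 fell and 0 rose at P14.5 (median -0.64). Piwil1, the PIWI protein of pachytene cells, had the largest difference (-3.95, SE 0.363, adjusted p = 0.000157), followed by Tdrd12 (-1.89, SE 0.159, adjusted p = 0.000123) and Mov10l1, the helicase that loads piRNA precursors (-1.25, SE 0.099, adjusted p = 0.000102). Of 13 Tudor domain genes of broad expression, such as Snd1 and Smn1, 4 fell and 2 rose (median -0.01). Pachytene markers summed to 206 to 395 RPKM in controls and 56.5 to 62.8 in tg/tg testes (8 of 9 tested called lower, median -2.98), early meiosis markers to 444 to 617 against 138 to 164 (9 of 9 lower, median -1.87), general germ cell markers to 1069 to 1337 against 503 to 565 (6 of 8 lower, median -0.83), and 8 of 8 Sertoli cell markers were called higher (median 0.46, sums 924 to 952 against 1191 to 1359 RPKM). The part of these shifts in the results for the Tudor genes was not tested.

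The age course was set beside the genotypes. From P10.5 to P14.5, 8 of 9 genes rose in control testes (29.6% of all genes called higher, 57.6% in either direction), led by Tdrd6 (log2 fold change 4.24, SE 0.392), Tdrd9 (1.40, SE 0.0931) and Stk31 (1.07, SE 0.0834), with Tdrkh and Rnf17 at 1.00, Tdrd5 at 0.96, Tdrd1 at 0.77 and Tdrd7 at 0.66. Tdrd3 had -0.17 (adjusted p = 0.0531), and was called lower under 8 of 17 alternatives (adjusted p down to 0.0265). In tg/tg testes 6 genes rose (20.6% of all genes called higher), with 0.68 for Tdrkh (SE 0.0793), 0.55 for Rnf17 and 0.50 for Tdrd9, and Tdrd3 fell by 0.24 (adjusted p = 0.0127; 23.3% of all genes called lower and 43.8% in either direction). The calls of Tdrd1, Tdrd7 and Tdrd3 in tg/tg testes were each lost without some single libraries (adjusted p up to 0.18, 0.060 and 0.0839). Tdrd5 (0.11, adjusted p = 0.395) and Tdrd6 (0.05, adjusted p = 0.95) were not called in tg/tg testes, where Tdrd6 stayed between 0.0475 and 0.108 RPKM at both ages. In control testes 9 of 9 markers of early meiosis (median 2.10) and 8 of 9 of pachytene (median 3.45) were also called higher with age. So were 6 of 8 of germ cells in general (median 0.81) and 11 of 13 other piRNA pathway genes (median 0.87). Of Sertoli cells, 7 of 8 were lower and 1 higher (median -0.69). Peritubular and stromal markers were lower in 6 of 6 (median -0.66), endothelial ones in 2 of 4 (median -0.43). Of 6 Leydig cell markers, 2 were lower and 1 higher (median 0.06). In tg/tg testes 9 of 9 of early meiosis (median 1.42) and 4 of 9 of pachytene (median 0.49) were higher. So were 7 of 8 of germ cells in general (median 0.42) and 7 of the 13 other piRNA pathway genes. Of Sertoli cells, 5 of 8 were lower and 1 higher (median -0.45). Peritubular and stromal markers were lower in 6 of 6 (median -0.77), endothelial ones in 4 of 4 (median -0.50) and Leydig cell ones in 3 of 6 (median -0.67). The part of these shifts in the age course was not tested.

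**Figure D3:**
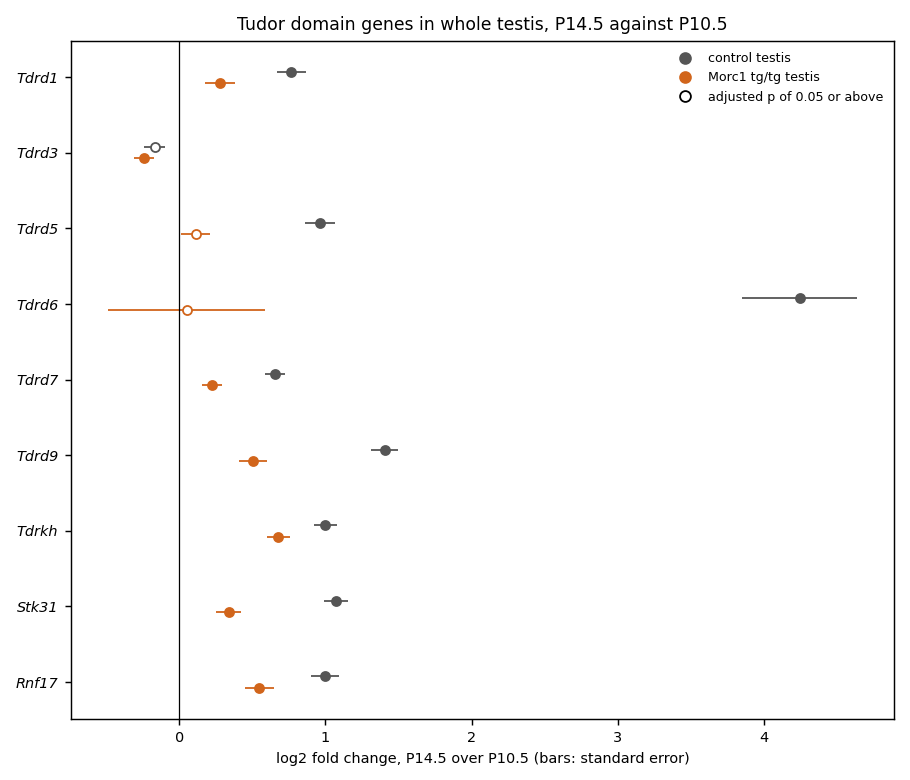
Log2 fold change from P10.5 to P14.5 in whole testis (x axis) of each gene (y axis), in controls and in Morc1 tg/tg mice. Points are estimates of edgeR, bars their standard errors, and open points have an adjusted p of 0.05 or above; Tdrd6 rose by 4.24 in controls and had 0.05 in tg/tg.

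The effect of Morc1 tg/tg differed between the ages for 5 of 9 genes by the interaction term (8.22% of all genes called, 6.73% with a lower effect at P14.5). The difference of the effects was -4.19 for Tdrd6 (SE 0.688, adjusted p = 0.00172), -0.90 for Tdrd9 (SE 0.132, adjusted p = 0.00094), -0.85 for Tdrd5 (SE 0.142, adjusted p = 0.00186), -0.73 for Stk31 (SE 0.118, adjusted p = 0.00155) and -0.43 for Tdrd7 (SE 0.0945, adjusted p = 0.0113). The Tdrd7 call was lost under 3 of 17 alternatives, each without a single library (adjusted p from 0.0584 to 0.0652). Tdrd1 (adjusted p = 0.0501), Rnf17 (0.0607) and Tdrkh (0.0881) did not pass. Each was called under some alternatives, Tdrd1 with DESeq2 (adjusted p = 0.0261) and Rnf17 with DESeq2 (0.0407), and Tdrd1, Rnf17 and Tdrkh (0.0307 and 0.0341) without the second tg/+ or the first tg/tg library of P14.5. Rnf17 was also called without the second tg/+ library of P10.5 (adjusted p = 0.0429). The other piRNA pathway genes were near the Tudor genes here, with 8 of 13 having a lower effect at P14.5 and 0 a higher one. Their median difference was -0.46, beside -0.49 for the Tudor genes. By the same term, 5 of 9 markers of early meiosis and 5 of 9 of pachytene had a lower effect at P14.5, and 2 of early meiosis a higher one. Their part was not tested.

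Between tissues at P10.5, the effect of Morc1 tg/tg was higher in germ cells than in testis for 4 of 9 genes (3.15% of all genes with a higher effect in germ cells, 6.81% in either direction), a comparison added after results were seen. The differences of the effects were 0.56 for Tdrd9 (SE 0.115, adjusted p = 0.00703), 0.55 for Stk31 (SE 0.121, adjusted p = 0.0119), 0.46 for Tdrkh (SE 0.122, adjusted p = 0.0285) and 0.44 for Rnf17 (SE 0.128, adjusted p = 0.0434). The last 2 lost their calls without any of several single libraries (adjusted p up to 0.0871 for Tdrkh and 0.138 for Rnf17), and Rnf17 also with the size factors of DESeq2 (0.0503). Tdrd6 had the largest difference, 1.89 (SE 0.572), and did not pass (adjusted p = 0.0526; 0.0302 with DESeq2). Nor did Tdrd5 (0.43, adjusted p = 0.0844), Tdrd1 (0.40, adjusted p = 0.068), Tdrd7 (0.30, adjusted p = 0.128) and Tdrd3 (-0.11, adjusted p = 0.701). Tdrd5 was called without the second tg/+ (0.0257) or the first tg/tg (0.0436) germ cell library, and Tdrd1 without the first (0.0462) or second (0.0432) tg/tg germ cell library. Tdrkh itself was at 11.3, 12.9 and 10.6 RPKM in tg/tg germ cells, which overlapped the tg/+ libraries, while in testis its groups did not overlap. The other piRNA pathway genes were near the Tudor genes here too, with 5 of 13 having a higher effect in germ cells and 0 a lower one. Their median difference was 0.40, beside 0.44 for the Tudor genes. By the same term, 6 of 7 general germ cell markers and 5 of 9 of early meiosis had a higher effect in germ cells, and 3 of 8 of Sertoli cells a lower one. Their part was not tested.

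In Dnmt3l-/- testes of P10.5, the same 8 genes as in Morc1 tg/tg testes of P14.5 were lower and Tdrd3 was slightly higher. These 8 of 9 compare with 29.0% of all genes called lower, and all 9 with 53.9% called in either direction, so that a call is common in this line. The median log2 fold change was -1.23 beside 0.00 over all genes. Controls are the 6 +/+ and +/- libraries, given by their lowest, median and highest value.

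Tdrd9 lay at 17.0, 17.9 and 21.3 RPKM in controls and at 3.54, 3.86 and 5.5 in Dnmt3l-/- testes, a log2 fold change of -2.04 (SE 0.128, adjusted p = 2.85e-07). Tdrkh lay at 14.3, 15.0 and 18.2 against 4.59, 4.55 and 6.99 (-1.51, SE 0.137, adjusted p = 3.89e-06), and Rnf17 at 12.8, 13.6 and 18.6 against 3.99, 5.07 and 5.79 (-1.50, SE 0.134, adjusted p = 3.47e-06). Every mutant library of these genes was below every control. Tdrd1 lay at 22.3, 24.2 and 25.8 against 8.91, 9.24 and 11.6 (-1.23, SE 0.0842, adjusted p = 5.37e-07), and Stk31 at 23.9, 25.9 and 29.6 against 11.4, 13.7 and 14.9 (-0.92, SE 0.0846, adjusted p = 4.16e-06). Tdrd5 lay at 8.68, 9.01 and 9.94 against 4.48, 4.70 and 5.55 (-0.86, SE 0.0781, adjusted p = 3.8e-06). No mutant library overlapped the controls at these genes either.

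Tdrd7 had the smallest fall, from 16.1, 17.1 and 17.8 to 11.02, 12.1 and 12.6 RPKM (log2 fold change -0.47, SE 0.0572, adjusted p = 3.4e-05). Tdrd6 had 9, 6 and 9 reads in mutants (0.0309, 0.019 and 0.0267 RPKM) against 0.0671, 0.0823 and 0.122 RPKM in controls (-1.70, SE 0.282, adjusted p = 0.000336), which is a fall within an already very low level. Tdrd3 was called higher (0.23, SE 0.0707, adjusted p = 0.0163; 24.9% of all genes were called higher), but its mutants at 7.35, 6.76 and 7.68 RPKM overlapped the controls at 5.65, 6.46 and 7.01, and the call was lost without the first mutant (adjusted p = 0.0662), without the third (0.0592) and with +/- controls alone (0.070).

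In the same testes all 13 of the other piRNA pathway genes fell (median -1.05), from -0.43 for Gtsf1 (SE 0.0883) to -1.58 for Mov10l1 (SE 0.0945), and of the 13 broadly expressed Tudor genes 7 fell and 2 rose (median -0.17). General germ cell markers summed to 600 to 754 RPKM in controls and 214 to 253 in Dnmt3l-/- testes (8 of 8 lower, median -1.58), early meiosis markers to 101 to 185 against 42.5 to 57.4 (9 of 9 lower, median -1.51), and Sertoli cell markers to 1003 to 1281 against 1786 to 1879 (6 of 8 higher, median 0.75). Of markers of differentiating spermatogonia, 5 of 6 were lower and 1 higher (median -1.72). Among 9 of undifferentiated spermatogonia, 4 were lower and 3 higher (median 0.21), and of 8 of pachytene, 6 were lower and 1 higher (median -0.76). The part of these shifts was not tested.

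**Figure D4:**
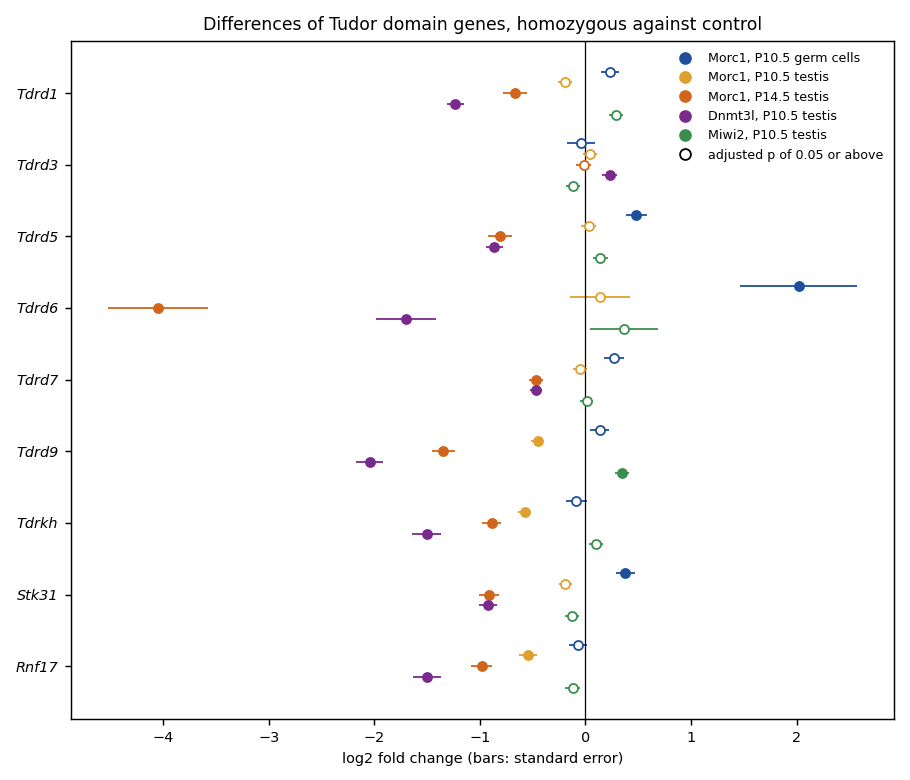
Log2 fold change of homozygous mutants (Miwi2-/- by label) against controls (x axis) for each gene (y axis). Samples are Morc1 germ cells of P10.5 and the testes of each mouse line. Bars are standard errors and open points have an adjusted p of 0.05 or above; the Dnmt3l-/- points lie farthest to the left for Tdrd1, Tdrd9, Tdrkh and Rnf17 among others, and the Morc1 P14.5 point for Tdrd6.

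At P10.5 the effect of Dnmt3l-/- was lower than that of Morc1 tg/tg for 8 of 9 genes by the interaction term (9.45% of all genes with a lower effect, 17.6% called in either direction). The difference of the effects was -1.78 for Tdrd6 (SE 0.394, adjusted p = 0.00562), -1.54 for Tdrd9 (SE 0.155, adjusted p = 9.1e-06), -0.99 for Tdrd1, -0.91 for Rnf17, -0.88 for Tdrkh, -0.85 for Tdrd5, -0.68 for Stk31 and -0.37 for Tdrd7 (SE 0.0845, adjusted p = 0.00662). Tdrd3 did not pass (0.23, adjusted p = 0.119). The other piRNA pathway genes were near the Tudor genes in this comparison, with 11 of 13 having a lower effect in Dnmt3l-/- testes and 0 a higher one. Their median difference was -0.85, beside -0.88 for the Tudor genes. By the same term, 7 of 8 general germ cell markers had a lower effect in Dnmt3l-/- testes and 6 of 8 of Sertoli cells a higher one. Of differentiating spermatogonia, 5 of 6 markers had a lower effect and 1 a higher one (median -1.03). Of undifferentiated spermatogonia, 4 of 9 had a lower effect and 2 a higher one (median 0.07). The part of these markers was not tested. The lines have controls of their own, so strain and batch go with the line and cannot be told apart from it.

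In testes labelled Miwi2-/-, 1 of 9 genes was called, while 1.23% of all genes were (0.725% higher). With the replicate block 5 of 9 were called, beside 4503 over all genes instead of 197. Whether same-numbered libraries of this line are pairs is not known from the labels. Tdrd9 was at 17.0 and 17.2 RPKM against 12.9 and 13.7 in +/- testes, with no overlap (log2 fold change 0.34, SE 0.0663, adjusted p = 0.0341), and the call was lost without the filter on low counts (adjusted p = 0.0676), without the first +/- library (0.0791) and without the second -/- library (0.0974). Tdrd1 was at 21.0 and 20.3 against 16.8 and 16.7 RPKM and did not pass (0.29, SE 0.0649, adjusted p = 0.0632), but it was called with DESeq2 (adjusted p = 0.0198), with the replicate block (1.79e-08) and without the second +/- library (0.0353). The other genes had differences between -0.13 for Stk31 and 0.36 for Tdrd6, and of these Tdrd5, Stk31 and Rnf17 were called with the replicate block (adjusted p = 0.0402, 0.0241 and 0.0298). Of the other piRNA pathway genes, Piwil2 (1.66, SE 0.0813, adjusted p = 1.39e-06) and Piwil4 were higher and Gtsf1 lower (-0.73, SE 0.0917, adjusted p = 0.00251), and 0 of the markers of germ cells, early meiosis and Sertoli cells were called. Of the other marker lists, the Leydig cell gene Star was lower (-0.44, adjusted p = 0.0128) and the globin gene Hba-a1 higher (0.57, adjusted p = 0.00973). Sums of Leydig cell markers were 362 to 396 RPKM in +/- against 313 to 329 in -/- testes, and those of macrophages and blood 130 to 151 against 161 to 178. Their part in the results was not tested.

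**Figure D5:**
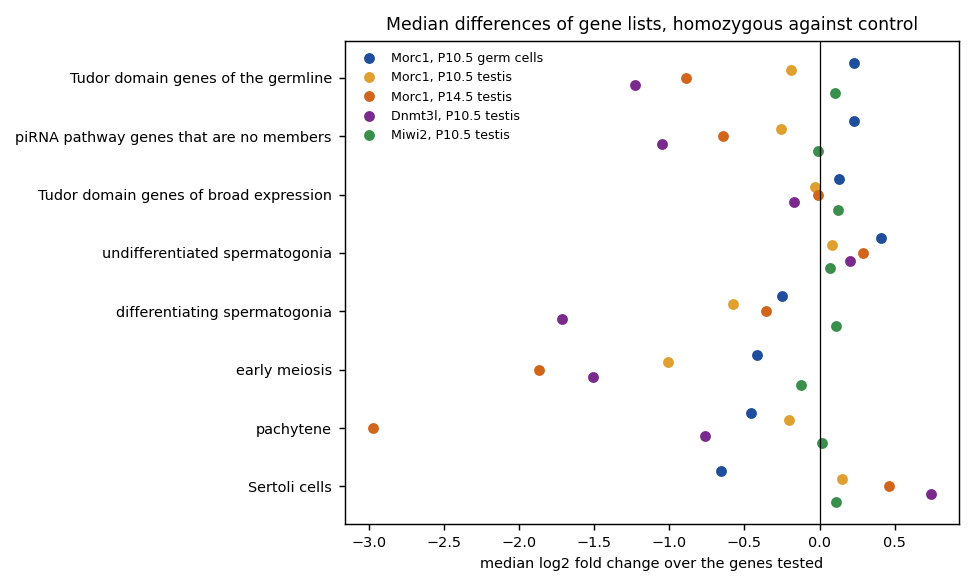
Median log2 fold change (x axis) over the genes tested, for homozygous mutants (Miwi2-/- by label) against controls in each comparison (colours). Rows (y axis) are the Tudor group, the other piRNA pathway genes, broadly expressed Tudor genes and cell type markers. In Morc1 testis of P14.5 the Tudor group lies at -0.89, the other piRNA pathway genes at -0.64 and broadly expressed Tudor genes at -0.01. In Dnmt3l-/- testis these lie at -1.23, -1.05 and -0.17, and in the Miwi2 line at 0.10, -0.01 and 0.12. General germ cell markers, which are not drawn, had medians of -0.83 in Morc1 testis of P14.5 and -1.58 in Dnmt3l-/- testis.

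As a description over the 20 groups of libraries, the pattern of each gene was set against 17555 genes by Pearson's r of log2(RPKM + 1) group means, with no test, since groups share tissue, kit and depth. Tdrd9 was most like Mtor (0.98), Tdrd5 like Adad1 (0.98), Stk31 like Hsp90aa1 (0.98), Rnf17 like Spata5 (0.97), Tdrd6 like Nell2 (0.96), Tdrd3 like Lrfn1 (0.96), Tdrd1 like Nup133 (0.95), and Tdrd7 and Tdrkh like Prpf40b and Igfbp2 (0.94 both). Ddx25, a helicase of germ cells, was among the 3 genes nearest to both Stk31 and Rnf17. Within the group, Rnf17 and Tdrd9 (0.92) and Tdrd1 and Tdrd5 (0.91) were most alike, and Tdrd6 and Tdrkh least (-0.26).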

How the data were processed

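The 47 RNA-Seq tables were used, and 17 other samples of the series were not used here. For each library the authors deposited raw counts, which are reads counted on genes in mm9 without normalization, and beside them RPKM, which the authors scaled to exon length and mapped reads. The submitters' processing notes name Bowtie, HTSeq and SAMtools; for the aligner of the gene reads, no name was given in the sources used here.

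The main test was edgeR 4.0.16 in R 4.3.3 (quasi-likelihood F test, TMM, filterByExpr), and p-values of a comparison were adjusted by Benjamini-Hochberg over every gene that passed the filter. Genes under 0.05 were called. Alternatives were DESeq2 1.42.0, its size factors in edgeR, no filter, a replicate block, other sets of controls and leaving out each library. Scripts were tested on simulated data. Controls of Morc1 testis at P10.5 were the +/+ and tg/+ libraries without the preliminary ones (tested only in tg/+ against +/+ and in 1 alternative), and those of Dnmt3l were +/+ and +/-. Stage steps came from 1 fit of the 11 tg/+ germ cell libraries. The deposited tables do not say whether counting used strand, and the paper's methods give only that HTSeq ran with its default parameters. Tdrd9 overlaps BC048943 on the other strand and Rnf17 a U6 gene. Libraries of a group differed beyond sampling noise (lowest chi-square per gene 4.52 over 38 pairs). The rule was to name all 9 genes in each comparison; in several, genes that were not called are given by their range or number alone. These genes and the gene lists were chosen with earlier results of these data known.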

Additional observations from a re-analysis of the deposited data

Results flagged for a closer look

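The effect of the Morc1 mutation on testis was larger, in the negative direction, at P14.5 than at P10.5 by the interaction term of edgeR for Tdrd5 (-0.85), Tdrd6 (-4.19), Tdrd7 (-0.43), Tdrd9 (-0.90) and Stk31 (-0.73). The Tdrd7 difference lost its call without the third tg/+ library or the first tg/tg library of P10.5, or without the third tg/+ library of P14.5 (adjusted p from 0.0584 to 0.0652).

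At P10.5 the effect of Dnmt3l-/- on testis lay below that of Morc1 tg/tg, by the same kind of term, for Tdrd1 (-0.99), Tdrd5 (-0.85), Tdrd6 (-1.78), Tdrd7 (-0.37), Tdrd9 (-1.54), Tdrkh (-0.88), Stk31 (-0.68) and Rnf17 (-0.91).

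The effect of the Morc1 mutation at P10.5 was more positive in germ cells than in testis for Tdrd9 (0.56), Stk31 (0.55), Tdrkh (0.46) and Rnf17 (0.44). The call was lost under 6 of 16 alternatives for Tdrkh and under 11 of 16 for Rnf17. No library stood apart from its group by Dixon's test in the 18 pairs of a gene and a group of 4 or 6 libraries that were tested.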

How the results depend on the processing

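Of 85 calls of a gene in a comparison, 67 were made under every alternative run. In some fit, the main one or an alternative, 104 pairs of a gene and a comparison were called, with 1529 alternative values. Of these values, 1 had the opposite sign of its main value, namely Tdrd1 from P2.5 to P10.5 in tg/tg libraries (0.26). In the Miwi2 line the number of genes called was 2 with DESeq2, 0 without the filter and 5 with the replicate block, instead of 1. From P2.5 to P10.5 it was 3 in tg/tg libraries, instead of 5. Leaving out 1 library at a time gave 0 to 2 genes in the Miwi2 line, 2 to 3 in Morc1 germ cells of P10.5, 3 to 4 in Morc1 testis of P10.5, 8 to 9 for Dnmt3l-/-, 2 to 6 from E16.5 to E18.5, 3 to 5 from E18.5 to P2.5, 3 to 6 from P2.5 to P10.5, 7 to 8 from E16.5 to P10.5, 8 to 9 for age in controls, 4 to 7 for age in tg/tg, 4 to 8 for the age interaction and 2 to 5 for the tissue interaction. The cause was not tested. Over all comparisons, replicate numbers were not shown to pair the libraries, as the correlation of same-numbered deviations ran from -0.61 to 0.59. The 0.59 was that of the Miwi2 line, with 2 libraries per group. The labels do not say whether its same-numbered libraries are pairs, so its counts without the block may leave out a pairing. The block left the number of genes called the same except in the Miwi2 line and from E18.5 to P2.5 (4 instead of 5).

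Counts over all genes, on which the shares of all genes called rest, also moved by more than 1.5 times. At E16.5 the Morc1 count went from 70 to 110 with DESeq2, 180 without the filter and 174 with the block, at E18.5 from 6 to 296, 83 and 46, and at P2.5 from 7 to 21, 27 and 30. It went from 2326 to 1200 with the block in Morc1 testis of P10.5, from 197 to 406 with DESeq2 and 4503 with the block in the Miwi2 line, from 2 to 5 with DESeq2 and 119 without the filter for Morc1 tg/+, from 1 to 2 with DESeq2 and 0 with the block for Dnmt3l +/-, from 4667 to 2712 in tg/tg libraries from P2.5 to P10.5, and from 1034 to 1728 with DESeq2 for the tissue interaction. Leaving out 1 library gave 74 to 171 genes at E16.5, 0 to 190 at E18.5, 0 to 70 at P2.5, 922 to 2352 in Morc1 testis of P10.5, 3517 to 5001 in that of P14.5 (5323 with all), 340 to 952 in the Miwi2 line, 2 to 441 for Morc1 tg/+, 0 to 1 for Dnmt3l +/-, 1731 to 4795 from E16.5 to E18.5 (3151 with all), 772 to 1746 for the age interaction (1287 with all), 1753 to 4021 for the Dnmt3l interaction (2797 with all) and 412 to 1321 for the tissue interaction. The parametric dispersion trend of DESeq2 was on the edge of convergence at E18.5, so the local trend was set there after seeing the data; the mean trend gave 266. None of the 9 genes was called with the local or mean trend. Depth limits Tdrd6, with 5 to 9 reads in tg/+ germ cells of P10.5.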
